A study of Mus musculus with 2 samples.

Results

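Aquaporins are membrane channels, and 8 of them were examined in the gut epithelium of mice with and without Lrrc19: Aqp1, Aqp3, Aqp4, Aqp5, Aqp7, Aqp8, Aqp9, and Aqp11. The members were found by gene symbol, as every probe set (a group of short probes read as 1 value) that the array's annotation gives to a single one of these genes, which gave 17 of 45101 probe sets and 8 of 18193 genes. Probe sets of other aquaporins were not analysed here. Each genotype was measured on 1 Affymetrix mouse array with an even pool of RNA from 5 mice, of which 2 were male and 3 female. All mice had the C57BL/6 background, were 6 weeks old, and had been kept free of specific pathogens since birth. The labelled genotypes were WT and lrrc19 gene KO, the latter being mice that lack the gut receptor LRRC19, with no other treatment. Epithelium was released from opened intestine with EDTA and depleted with magnetic beads of CD4 and CD8 cells, macrophages, dendritic cells, and B cells. Because pooling leaves 1 value per genotype, nothing is known of the spread between mice, no test was possible, and array and genotype cannot be told apart.

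Aquaporins form tetramers in which every subunit holds its own pore, and water follows the osmotic gradient that salt transport sets up. The orthodox members, here Aqp1, Aqp4, and Aqp5, pass water. The aquaglyceroporins, here Aqp3, Aqp7, and Aqp9, also pass glycerol. Aqp8 passes water, ammonia, and hydrogen peroxide, and Aqp11 belongs to a more distant branch that resides in intracellular membranes. In the colon, the epithelium absorbs most of the water left in the gut contents, with Aqp8 described in the apical part of surface cells and Aqp3 and Aqp4 in their basolateral membranes.

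The main facts of the arrays bear on all values below. Intensities are on a linear scale in arbitrary units. The median of all values, 127, served as a floor. A gene was read from its brightest probe set, and it was called higher or lower when it reached the floor in at least 1 pool and differed at least 2-fold. Lrrc19 itself was at 905 in WT and 212 in KO on one probe set and at 391 and 20.9 on the other. The sources used here do not name the deleted exons, so these probe sets may or may not lie in them. The enterocyte gene Vil1 was present (5569 in WT and 5762 in KO), but all 10 smooth muscle markers were also at or above the floor. Their summed intensity was 60200 in WT and 79100 in KO, so the label of epithelial cells describes only a part of the material. In such mixed samples, fewer cells of a type and less RNA per cell cannot be told apart.

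Aqp8 was the 1 aquaporin called higher in the Lrrc19 KO pool, and no aquaporin was called lower. Its intensity was 2019 in WT and 4873 in KO, a difference of 1.27 on the log2 scale (2.41-fold higher). Of 12518 genes at or above the floor, 0.559% were called higher and 0.407% lower, against which 1 of the 5 aquaporins at or above the floor was called higher, too few genes to read a share from. The other 4, Aqp1, Aqp3, Aqp4, and Aqp11, stayed within 2-fold. The remaining 3, Aqp5, Aqp7, and Aqp9, were under the floor in both pools on every probe set. The median log2 difference of the 5 aquaporins was 0.08, against 0.01 for all 12518 genes, and it was -0.0077 without Aqp8.

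**Figure D1:**
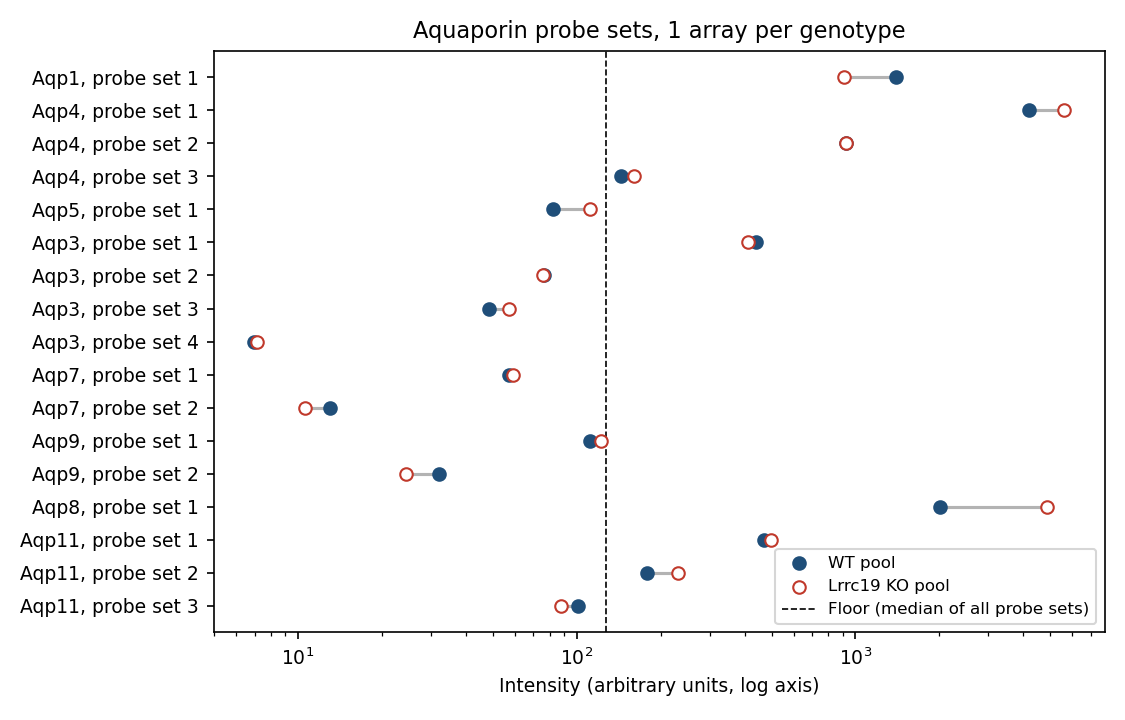
Intensity (log axis, arbitrary units) of each of the 17 aquaporin probe sets (filled points, WT; open points, Lrrc19 KO). There is a single array for either genotype, hence no error bar, and the dashed line marks the floor at 127. The pair of points lies farthest apart for Aqp8, at 2019 and 4873, and 9 of the 17 probe sets lie under the floor in both pools.

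The sequences before the start sites of Aqp8 and Aqp1 are shown because these genes had the largest positive and the largest negative log2 difference among the aquaporins at or above the floor. Each is the 250 bases before the RefSeq start of the gene, read 5′ to 3′ on the plus strand of GRCm38.p6, at chr7:123462044-123462293 for Aqp8 and at chr6:55336049-55336298 for Aqp1. Capitals mark matches to the motifs searched on both strands, which were the TATA box (TATAAA), the CCAAT box, the GC box (GGGCGG), the E-box (CACGTG), a motif of GATA factors (AGATAA), and a motif of the caudal homeobox factors of the gut (TTTATNG).
Aqp8: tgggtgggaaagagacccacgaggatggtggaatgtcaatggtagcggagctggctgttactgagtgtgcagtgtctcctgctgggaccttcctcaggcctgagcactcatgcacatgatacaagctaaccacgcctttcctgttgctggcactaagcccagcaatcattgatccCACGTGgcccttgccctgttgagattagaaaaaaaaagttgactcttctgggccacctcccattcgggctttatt
Aqp1: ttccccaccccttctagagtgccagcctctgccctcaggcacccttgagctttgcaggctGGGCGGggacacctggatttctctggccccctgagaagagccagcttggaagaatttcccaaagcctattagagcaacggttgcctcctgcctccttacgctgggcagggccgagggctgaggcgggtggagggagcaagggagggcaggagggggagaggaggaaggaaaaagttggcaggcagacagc
In the Aqp8 window the one match was the E-box, 75 to 70 bases before the start, a motif that 6.02% of 32851 windows of this length hold. In the Aqp1 window the one match was the GC box, which 32.7% hold. Neither motif was particular to these genes among the aquaporins. The E-box was also in the window of Aqp5 (87 to 82 bases before the start), which was under the floor in both pools. The GC box was also in the windows of Aqp3 and Aqp5. The TATA box was in neither the Aqp8 nor the Aqp1 window and in 12.4% of all windows. These matches describe the sequence only, since the arrays measured RNA and no binding.

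Among the single genes, Aqp8 stood near the upper end. In the Lrrc19 KO pool, 31 of 12518 genes had a larger positive log2 difference than Aqp8, or 0.248%. Of the 7588 genes that also reached the 75th percentile of intensity, 24 did. The robust SD of the log2 difference over all genes was 0.27, which contains array noise and differences between the pools. Aqp8 has 1 probe set on the array, so no second reading of it exists. As a measure of how far such readings can diverge, the brightest and the next probe set were compared in 4528 genes with both at or above the floor on both arrays. Their log2 differences lay a median of 0.17 apart, and the 95th percentile of the gap was 0.57. Of 15 such genes called higher on the brightest probe set, the next one was also at least 2-fold higher in 7 and was in the same direction in 14.

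**Figure D2:**
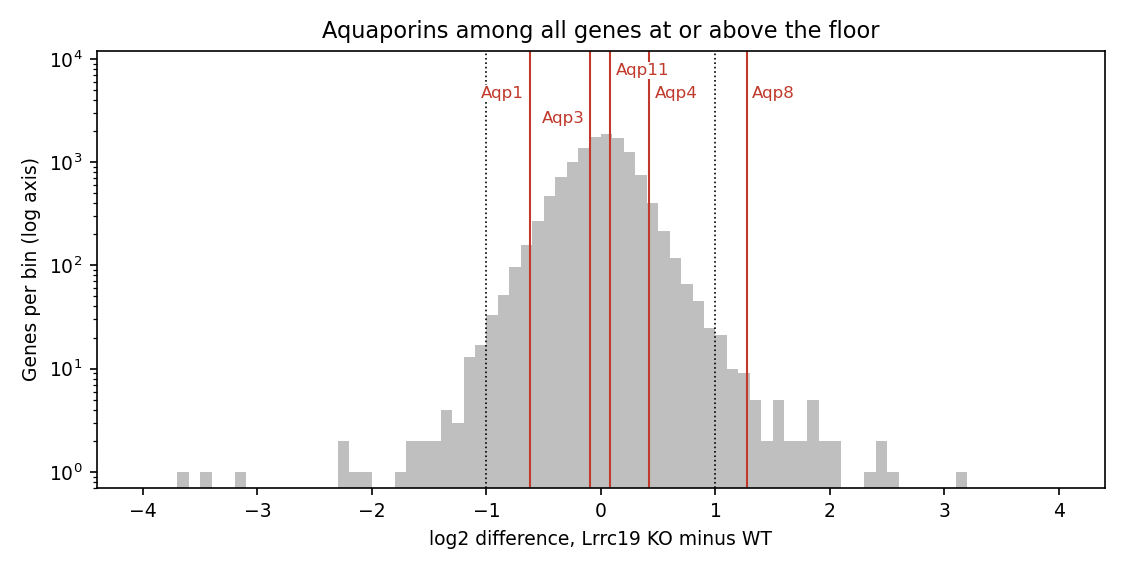
Number of genes (log axis) by log2 difference between the Lrrc19 KO and WT pools, for 12518 genes at or above the floor, with the 5 aquaporins as red lines and 2-fold as dotted lines. Aqp8, at 1.27, lies to the right of the upper dotted line, and Aqp1, at -0.62, Aqp3, Aqp11, and Aqp4 lie between the dotted lines.

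Among the orthodox water channels, Aqp1 and Aqp4 ran in opposite directions without passing 2-fold. Aqp1, the channel of red cells and of capillary and lacteal endothelium, was at 1400 in WT and 909 in KO on its 1 probe set (log2 difference -0.62). Of all genes at or above the floor, 357 had a more negative difference, or 2.85%. Aqp4, which is abundant in astrocytes and in the basolateral membrane of colon epithelium, was at 4204 in WT and 5612 in KO on its brightest probe set (0.42). Its other probe sets gave smaller differences, with intensities of 924 and 929 (0.0074) and of 145 and 161 (0.16). The 3 probe sets of Aqp4 thus had the same sign and differed in size, and their mean was 0.19. Aqp5, the water channel of salivary, lacrimal, and other glands, reached the floor in neither pool (82.0 in WT and 112 in KO), so it has no fold.

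Of the aquaglyceroporins, only Aqp3 reached the floor. Aqp3, a channel of the basolateral membrane in many epithelia, was at 440 in WT and 413 in KO (log2 difference -0.09). The other 3 probe sets of Aqp3 were under the floor in both pools, from 6.97 to 76.3 in WT and from 7.14 to 75.9 in KO. Aqp7, through which adipocytes release glycerol, was at 57.2 in WT and 58.9 in KO on its brighter probe set. Aqp9, known for glycerol uptake in the liver and also found in leukocytes, was at 112 in WT and 122 in KO on its brighter probe set. The dimmer probe sets of Aqp7 and Aqp9 were lower still, at 13.0 and 10.6 and at 32.0 and 24.5. Values under the floor give no order between the pools.

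Aqp11, the intracellular channel, was at 472 in WT and 498 in KO on its brightest probe set (log2 difference 0.08). Its next probe set gave 180 in WT and 231 in KO (0.36). The last, which can match several transcripts, was under the floor at 101 and 88.1. The gap of 0.29 between the 2 probe sets of Aqp11 above the floor lay between the median and the 95th percentile of such gaps over all genes.

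No source used here states how one array was scaled to the other, so differences between members were also taken, from which any constant offset between the arrays drops out. The log2 difference of Aqp8 exceeded that of Aqp4 by 0.85, that of Aqp11 by 1.19, that of Aqp3 by 1.36, and that of Aqp1 by 1.89. It exceeded that of Vil1 by 1.22 and that of Krt20, a keratin of mature gut epithelium, by 1.05. The order Aqp8, Aqp4, Aqp11, Aqp3, Aqp1, from the most positive to the most negative, was therefore independent of a constant offset, but not of one that varies with intensity, which was not tested. Of the neighbours in this order, Aqp11 and Aqp3 (0.0766 and -0.0919) lay closer than the median gap between probe sets of 1 gene. Aqp4 and Aqp11 (0.34 apart) and Aqp3 and Aqp1 (0.53 apart) lay within its 95th percentile, and Aqp8 and Aqp4 did not. That gap was taken within these same arrays and holds no spread between mice or between arrays. It therefore cannot show whether Aqp8 and Aqp4 differ beyond such spread. The values themselves moved with the scaling. The hybridization spike-ins are foreign transcripts that are nominally added in equal amounts. Their 18 probe sets are repeat readings of BioB, BioC, BioD, and Cre, not independent ones. All of them gave more signal in KO, with a median log2 difference of 0.497. Centred on them, Aqp8 was at 0.77 and no longer passed 2-fold, and Aqp1 was at -1.12 and did, while the median of all genes moved from 0.01 to -0.48. With both arrays set to the same median or centred on 9 control genes, Aqp8 was at 1.19 and 1.37.

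**Figure D3:**
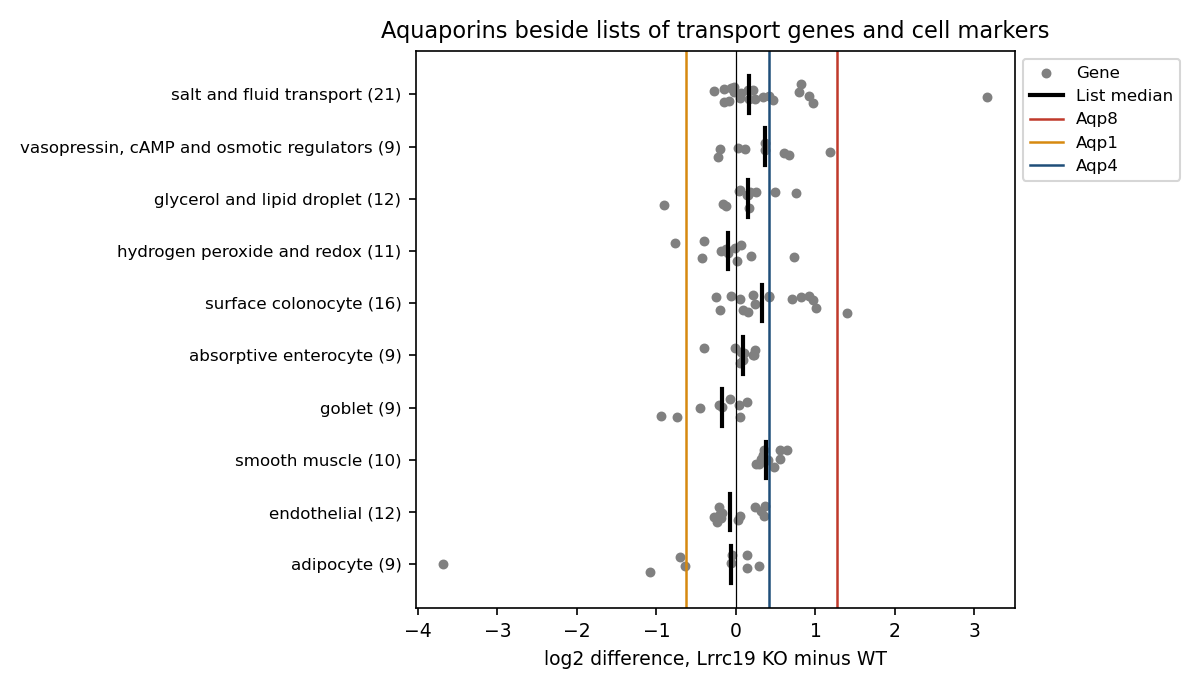
Log2 difference (Lrrc19 KO minus WT) of single genes (grey points) and the median (black bars) of 10 lists, with the number of genes at or above the floor in parentheses. Vertical lines mark Aqp8 (1.27), Aqp4 (0.42), and Aqp1 (-0.62); 1 gene of the salt and fluid list (Atp12a) and 1 surface colonocyte gene (Slc20a1) lie to the right of Aqp8.

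Salt transport sets the osmotic gradients that water follows through aquaporins. Of 21 salt and fluid transport genes at or above the floor, 1 was called higher, none was called lower, and the median log2 difference was 0.17 (-0.33 when centred on the spike-ins). The called gene was Atp12a, which encodes the catalytic chain of a proton-potassium pump (531 in WT and 4760 in KO). Atp12a was also the one gene of the list with a larger difference than Aqp8. Just under 2-fold, and named after their values were seen, were the apical exchangers of surface colonocytes Slc26a3, which exchanges chloride for bicarbonate (4525 and 8844, log2 difference 0.97), and Slc9a3, which exchanges sodium for protons (3014 and 5713, 0.92). Both passed 2-fold when centred on the control genes, where 3 genes of the list were called higher, and Slc26a3 also passed it with the mean of all probe sets, where 2 were. The difference of Aqp8 exceeded theirs by 0.30 and 0.35. Among 9 regulators of aquaporins and of the response to osmotic stress, 1 was called higher, the myo-inositol carrier Slc5a3 (634 and 1441, 2.27-fold), none was called lower, and the median was 0.36. None (0) of these regulators was called with the mean of all probe sets or when centred on the spike-ins, where the median was -0.14.

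The other solutes of these channels are glycerol and hydrogen peroxide. None of 12 genes of glycerol and lipid droplet metabolism was called, with a median log2 difference of 0.15 and the largest differences in the lipase Lpl (1024 in WT and 545 in KO, -0.91) and the glycerol phosphate dehydrogenase Gpd2 (1088 and 1834, 0.75). None of 11 hydrogen peroxide and redox genes was called, with a median of -0.09 and the largest differences in the peroxiredoxin Prdx4 (1683 and 987, -0.77) and the oxidase maturation factor Duoxa2 (201 and 334, 0.73). Aqp8 had a larger difference than every gene at or above the floor in both lists.

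Markers of the colon surface were read beside Aqp8, and 15 of 16 had a smaller difference than Aqp8. Of 16 surface colonocyte markers, all of them at or above the floor, 2 were called higher, none was called lower, and 13 had a positive difference. The number called higher was 1 with equal array medians, 4 when centred on the control genes, and 0 when centred on the spike-ins, where the median of the list turned to -0.17 and 6 of 16 differences were positive. The 4 included Slc26a3 and Slc9a3, which also belong to the salt and fluid list. Other genes are shared too, such as Car1 with the colon markers and Krt20 with the enterocyte markers, so the lists are not separate readings. As reported, the called genes were the phosphate carrier Slc20a1 (1668 in WT and 4390 in KO, 2.63-fold) and the acute-phase protein Saa1 (5585 and 11265, 2.02-fold). Both were read from probe sets open to several transcripts, and both were still called when such probe sets were left out. With the mean of all probe sets, Slc26a3 and Saa1 were called and Slc20a1 was not. With equal array medians, Saa1 was not called. The list had a median log2 difference of 0.33 and a summed intensity of 123600 in WT and 141000 in KO, and the difference of Aqp8 exceeded its median by 0.94. Of its 3 carbonic anhydrase genes, none of them called, Car4 was at 6274 and 8359 (0.41), Car2 at 9288 and 9659 (0.06), and Car1 at 22420 and 18909 (-0.25). Of 10 colon markers, Hoxd13 (42.4, under the floor, and 255) and Hoxb13 (259 and 738) were called higher and none was called lower, and the median was -0.0018, with 5 of 10 positive. Hoxd13 was not called with the mean of all probe sets or with the floor at the 75th percentile, and 3 colon markers were called higher when centred on the control genes. The part of these markers in the difference of Aqp8 was not tested.

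Other epithelial markers differed less or ran the other way. None of 9 absorptive enterocyte markers was called (median log2 difference 0.09), and the largest differences were those of the peptidase Dpp4 (-0.40) and the protease Mep1a (0.24). Of 8 ileum markers, none was called higher and 1 was called lower, the transcription factor Osr2 (472 in WT and 215 in KO). Their median was -0.35, and it was 0.17 when probe sets open to several transcripts were left out. Osr2 was no longer called in that setting or with the mean of all probe sets. None of 4 proximal small intestine markers was called (median -0.10), with Ada at -0.54 and Lct at -0.17. None of 9 goblet cell markers was called (median -0.18), with Agr2 at -0.95 and Spdef at -0.74. Agr2 was called lower with equal array medians, when centred on the spike-ins, and with the mean of all probe sets, and Spdef when centred on the spike-ins. Zg16 was called lower without probe sets open to several transcripts. None of 5 markers of Brunner glands and pylorus was called (median 0.08), with Muc5ac at 0.23 and Bpifb1 at 0.19.

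Markers of the cells in which the other aquaporins are best known were read in the same way. Of 14 endothelial markers, 12 reached the floor and none was called. Their median log2 difference was -0.07, with Eng at 0.35 and Emcn at 0.32, and the summed intensity of these 12 was 3910 in WT and 3889 in KO. Aqp1 had a more negative difference than each of these 12 and lay 0.55 under their median. Of the erythroid markers, 2 of 6 reached the floor (Slc4a1 at 0.23 and Epb42 at 0.12), and the hemoglobin gene Hba-a1 did not. For Aqp7, 9 of 11 adipocyte markers reached the floor, and 2 of them were called lower, the hormone Adipoq (313 and 24.4, the latter under the floor) and the lipid carrier Fabp4 (1372 and 648). The median of these 9 was -0.06 and their summed intensity 5617 in WT and 4023 in KO, while Aqp7 was under the floor in both pools. With the mean of all probe sets, 7 markers reached the floor and their median was -0.52, and the number called lower went from 1 to 4 over the other settings. The part of these markers in the values of Aqp1 was not tested.

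Some markers of the cells in which Aqp9 is known reached the floor and others did not. Of 10 neutrophil markers 3 reached it, with none called (median log2 difference -0.06, Csf3r at 0.10, and Mmp9 at -0.06), while S100a8 and S100a9 were among the 7 that did not. Of 8 hepatocyte markers 5 reached it, with none called (median -0.07, Cps1 at -0.92, and Tat at 0.29), while Alb (54.1 and 60.2) was among the 3 that did not. Cps1 was called lower with equal array medians and when centred on the spike-ins. Whether the signal of these 5 genes came from hepatocytes or from other cells was not tested. None of 4 pancreatic acinar markers at or above the floor was called (median -0.09, Cela1 at 0.59, and Cela3b at -0.17). For Aqp4, none of 4 enteric glia markers at or above the floor was called (median 0.06, Sox10 at 0.21, and Foxd3 at -0.20), and Gfap and S100b were under it. All 10 smooth muscle markers had a positive difference, with a median of 0.37, none called, and Des (0.65) and Myh11 (0.55) differing most. When centred on the spike-ins, 3 of the 10 were positive and the median was -0.12. Aqp4, at 0.42 on its brightest probe set, lay within the range of these markers (0.26 to 0.65). Its other probe sets (0.0074 and 0.16) lay under that range. The brightest probe set of Aqp4 also lay among the 16 surface colonocyte markers. Of these, 6 had a larger difference and 10 a smaller one, and Aqp4 exceeded their median by 0.09. The part of glia, smooth muscle, or surface colonocyte markers in the difference of Aqp4 was not tested.

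**Figure D4:**
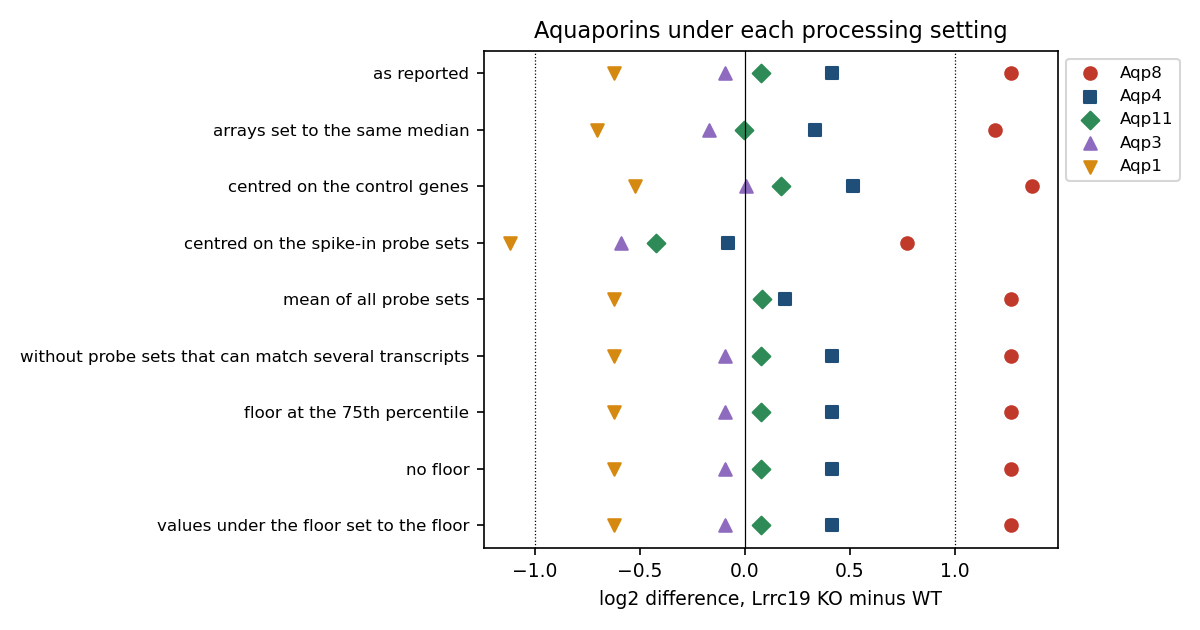
Log2 difference (Lrrc19 KO minus WT) of the 5 aquaporins at or above the floor as reported and under 8 other settings, with dotted lines at 2-fold. Aqp8 stays at the right under every setting and falls inside the dotted line when centred on the spike-ins (0.77), where Aqp1 passes it on the left (-1.12); Aqp3 is under the floor and not shown for the mean of all probe sets.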

How the data were processed

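RNA from gut epithelial cells was measured on 1 array per genotype, each hybridized with a pool of 5 mice. The authors deposited linear intensities (lowest 1, highest 25842) for 45101 probe sets on either array. RMA, without a version, is named in the submitters' processing notes. RMA usually gives log2 values of equal distribution, but here the values at the same rank differed at 99.97% of ranks, and their medians were 124 and 131. The scaling is thus unknown; a constant error in it would shift all log2 differences alike, and whether it was constant was not tested.

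The log2 of each value, not less than 1, was used (Python 3.11.15, NumPy 2.4.6, pandas 2.3.3). Probe sets with 1 symbol in the platform annotation were used (34945, of which 34741 matched the RefSeq table of GRCm38.p6 by gene ID, with 932 of several symbols and 9160 unnamed here left out). A gene was read from the probe set with the highest mean log2. As a floor, the 50th percentile over both arrays without control probe sets was used. Genes reaching it in 1 pool and differing at least 2-fold (Lrrc19 KO minus WT) were called. The calling step was tested on simulated data with larger changes, in bright genes only, and with a smaller spread than these arrays. That checked the code and not the accuracy of calls near 2-fold. Precision is limited by the number of arrays. The genes named are the 8 aquaporins with every probe set, Lrrc19, and from each list the genes called or else the 2 with the largest difference above the floor in both pools. Other list genes (Slc26a3, Slc9a3, Car1, Car2, Car4, Vil1, Krt20, Zg16, Hba-a1, S100a8, S100a9, Alb, Gfap, S100b) were named after their values were seen. No test was run. The members and lists were chosen with earlier results of these data known. Alternatives covered scaling, probe set choice, and floor.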

Additional observations from a re-analysis of the deposited data

How the results depend on the processing

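With the array medians made equal, with centring on control genes, with the mean of all probe sets, without probe sets that can match several transcripts, with the floor at the 75th percentile or absent, and with low values raised to the floor, Aqp8 remained the 1 aquaporin called higher and none was called lower. Aqp8 and Aqp1 have 1 probe set each, well above either floor, so the settings of probe set choice and floor could not change their values. Of the scaling settings, centring on the hybridization spike-ins removed the call of Aqp8. No aquaporin (0) was then called higher and 1 was called lower, the median of the aquaporins was -0.42, and the log2 differences were 0.77 for Aqp8, -0.080 for Aqp4, -0.42 for Aqp11, -0.59 for Aqp3, and -1.12 for Aqp1. Over all genes this setting called 23 higher and 657 lower, in place of 70 and 51. With equal array medians 53 were higher and 76 lower, and with centring on control genes 95 and 34. The sign of Aqp11 also turned with equal array medians (-0.0036), and that of Aqp3 with centring on control genes (0.0058). With the mean of all probe sets 46 genes were called higher and 39 lower, Aqp3 was under the floor, and Aqp4 was at 0.19. With no floor 105 were higher and 77 lower. Centred on the spike-ins, the medians of all 19 gene lists were below 0 (from -0.85 to -0.12), against 9 of 19 above 0 as reported. Of 150 list medians under the alternatives, 127 moved by no more than 0.27, and of the 23 that moved further 19 were those of the spike-in centring. The scaling settings add nearly the same offset to every list, so their outcomes here follow from its size (0.497 for the spike-ins). No paired analysis was possible because each genotype had 1 array, and for the same reason no replicate could be left out.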
